A study of Mus musculus with 15 samples.

Results

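The genes described here are 8 genes that mark the sensory neurons of the trigeminal ganglion, the cranial ganglion that supplies sensation to the face and jaws. They are Neurog1, Neurod1, Isl1, Pou4f1, Tlx3, Ntrk3, Ret and Sst, and they were chosen by name. Every probe set whose annotation gave 1 of these symbols was taken, which made 20 of the 45101 probe sets on the Affymetrix mouse array and 8 of the 18193 genes with a symbol. None of the 20 was shared with another gene. A filter on dim probe sets left 12 of the 20 for testing, and each of the 8 genes kept at least 1.

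RNA came from mouse embryos at E10.5 (E for embryonic day), from the first branchial arch, whose maxillary and mandibular branches build the upper and lower jaw. The 15 arrays formed 5 groups of 3, namely wild-type (WT) mandibular, Dlx5/6 mutant mandibular, KO maxillary, and 2 wild-type maxillary groups that the labels write WT_MXA and WT_MXA2 and that are called set 1 and set 2 here. Dlx5 and Dlx6 are homeobox genes that give the mandibular branch its identity. The labels do not name the KO gene, and their shared description, a plan written ahead of the dissections, lists dlx2, dlx1/2 and Dlx5/6 mutants and foresees several arches per sample. They give no strain and do not say which embryos or pools an array was made from. The p-values below therefore measure the spread between these arrays, which may be technical.

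The mutant labels were checked against the Dlx genes. Dlx5 gave a mean signal of 727 ± 40.5 (SD, n = 3) in WT mandibular and 10.9 ± 2.97 in Dlx5/6 mutant mandibular RNA, and Dlx6 gave 250 ± 51.3 and 3.32 ± 1.52. In the KO maxillary RNA, Dlx2 gave 3.36 ± 0.18 against 422 ± 20.1 in set 2, and Dlx1 gave 209 ± 11.7 against 711 ± 30.8. The spike-in control dap split the arrays. It read 287 to 340 on 9 arrays, those of the mandibular groups and of set 1, and 2560 to 2820 on the 6 arrays of set 2 and the KO group. Set 2 was therefore the control of the KO group. Between set 1 and set 2, the group and the set of arrays cannot be told apart.

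Sensory neurons of the trigeminal ganglion arise from placode and neural crest. Neurog1 and Neurod1 encode basic helix-loop-helix factors that act early, when a precursor commits to and enters differentiation, and they bind E-boxes. Isl1, Pou4f1 and Tlx3 encode homeodomain factors that are switched on as neurons are born and then hold their sensory identity. Ntrk3 encodes the receptor of neurotrophin-3, Ret encodes the signalling receptor of the GDNF family, and Sst encodes the neuropeptide somatostatin, which young sensory neurons make. Several of these genes are not restricted to sensory neurons. Isl1 is also known from arch epithelium and mesoderm, and Ret and Ntrk3 from other neurons and tissues.

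The windows of 250 bases before the start used by a RefSeq promoter table for Neurog1, Neurod1, Pou4f1 and Sst are shown because these 4 genes moved together across the arrays. The table (GRCm38.p6) matched 6 of the 8 genes, not Ntrk3 or Ret. Each is written 5′ to 3′ on the gene's strand. Capitals mark 3 motifs, which are the E-box CANNTG, the homeodomain core TAAT on either strand (so also ATTA), and the cAMP response element TGACGTCA. The E-box and TGACGTCA read the same on both strands.
Neurog1 (chr13:56252181-56252430, minus strand): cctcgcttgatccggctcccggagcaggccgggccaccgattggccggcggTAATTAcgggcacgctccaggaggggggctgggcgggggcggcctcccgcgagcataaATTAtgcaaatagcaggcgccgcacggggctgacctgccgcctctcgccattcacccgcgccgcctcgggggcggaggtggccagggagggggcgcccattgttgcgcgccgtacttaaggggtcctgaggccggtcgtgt
Neurod1 (chr2:79456637-79456886, minus strand): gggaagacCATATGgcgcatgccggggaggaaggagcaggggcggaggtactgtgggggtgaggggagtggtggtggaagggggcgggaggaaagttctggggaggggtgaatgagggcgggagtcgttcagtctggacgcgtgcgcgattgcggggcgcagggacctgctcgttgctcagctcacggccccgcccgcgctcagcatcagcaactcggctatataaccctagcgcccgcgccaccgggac
Pou4f1 (chr14:104468000-104468249, minus strand): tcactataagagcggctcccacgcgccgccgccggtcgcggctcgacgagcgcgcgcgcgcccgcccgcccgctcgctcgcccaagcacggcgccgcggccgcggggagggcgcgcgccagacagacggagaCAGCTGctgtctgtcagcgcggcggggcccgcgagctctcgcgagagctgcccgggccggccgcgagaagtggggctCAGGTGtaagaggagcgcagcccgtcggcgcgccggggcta
Sst (chr16:23890845-23891094, minus strand): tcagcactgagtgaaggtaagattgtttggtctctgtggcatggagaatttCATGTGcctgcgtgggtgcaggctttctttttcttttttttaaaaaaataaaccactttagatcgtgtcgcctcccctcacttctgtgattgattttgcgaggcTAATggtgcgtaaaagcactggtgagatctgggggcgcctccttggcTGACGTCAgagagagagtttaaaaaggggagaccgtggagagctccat

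Neurog1, whose product binds E-boxes, had none in its own window, but TAAT at -199 overlapping ATTA at -197, and ATTA again at -141, counted from the start that the table uses. For Pou4f1 and Sst that start differs from the annotated start of the gene. Neurod1 had 1 E-box, CATATG at -242, and Pou4f1 had 2, CAGCTG at -118 and CAGGTG at -41. Sst had CATGTG at -199, TAAT at -95 and the cAMP response element TGACGTCA at -48. Of the 2 windows not shown, Isl1 held 1 E-box and 2 homeodomain cores, and Tlx3 held 5 homeodomain cores and no E-box. Among all 32851 promoter windows of this length, 66.2% held an E-box and 54.9% a homeodomain core, so these matches were common. TGACGTCA stood in 1.55% of windows. A match is a string of letters, and binding was not measured here.

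**Figure D1:**
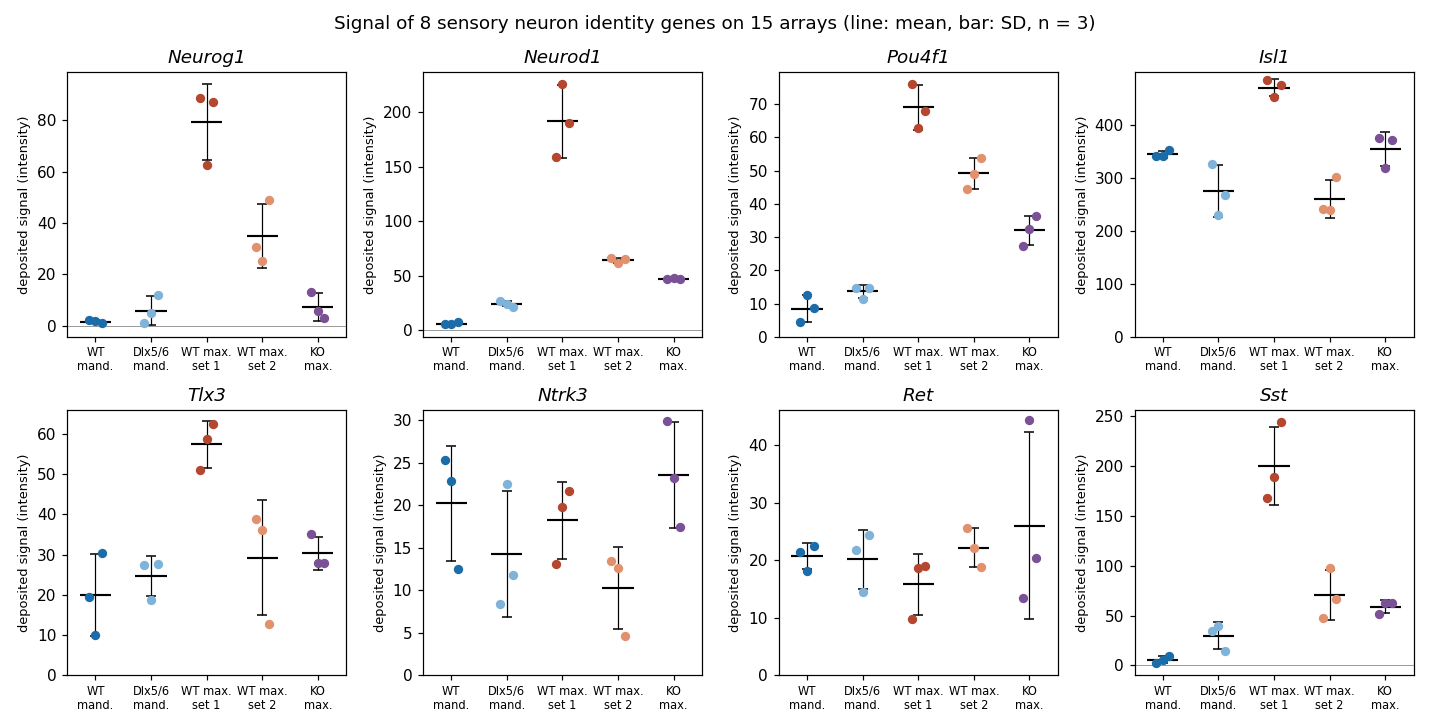
Deposited signal (linear intensity, axis from 0) of each gene's brightest tested probe set on the 15 arrays, with the mean and SD of each group of 3. Neurog1, Neurod1, Pou4f1 and Sst step down from set 1 to WT mandibular, from 192 to 6.07 for Neurod1. For Ntrk3 and Ret, groups next to each other in order overlap.

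The levels are given as the deposited signal, a linear intensity scaled to a common trimmed mean, and signals of different genes are not compared with each other. On each array 40% of probe sets lay below a signal of 16.2 to 21.6, so values under that range stood among the dimmest of the array. Where groups are said not to overlap, the share of all genes for which this held was not counted.

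Neurog1, the proneural gene at the start of the series, was read best by probe set 1438551_at. It gave 88.7, 62.4 and 87.1 on the 3 set 1 arrays and 30.7, 25.2 and 49.0 on the set 2 arrays. It gave 13.2, 5.68 and 2.86 on the KO arrays, 0.886, 4.95 and 11.8 on the Dlx5/6 mutant mandibular arrays and 2.07, 1.75 and 0.875 on the WT mandibular arrays. Set 1 stood above set 2 and set 2 above the KO group without overlap, while the KO group and both mandibular groups lay among the dimmest values. There the mutant mandibular group overlapped each of the others, and the KO group lay above WT mandibular. This probe set passed the filter on dim values on 6 arrays, the wild-type maxillary ones, so it was kept through the groups where it was high. The other probe set, 1450836_at, stayed between 1.25 and 28.2, overlapped between all groups and was not tested.

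Neurod1, which follows Neurog1 and drives differentiation, had the most regular steps. Probe set 1426412_at gave 159, 226 and 190 in set 1, 65.8, 61.8 and 64.9 in set 2, and 46.9, 48.1 and 47.2 in the KO group. It gave 26.4, 24.3 and 21.7 in the Dlx5/6 mutant mandibular group and 5.33, 5.57 and 7.33 in the WT mandibular group. No group overlapped its neighbour in this order. The means of set 2, the KO group and the mutant mandibular group were 33.4%, 24.7% and 12.5% of the set 1 mean, and the WT mandibular values lay among the dimmest of their arrays. The other probe set, 1426413_at, followed it over the 15 arrays (Pearson r = 0.92, on log2 levels), but on it set 2 (22.1 to 33.4) overlapped the KO group (18.8 to 49.1) and the mutant mandibular group (14.6 to 27.5).

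Pou4f1, a POU homeodomain gene of newborn sensory neurons, kept the same order as Neurod1. Probe set 1429667_at gave 76.1, 62.9 and 68.0 in set 1, 44.5, 49.1 and 53.9 in set 2 and 27.4, 32.4 and 36.2 in the KO group. It gave 14.8, 11.4 and 14.7 in the mutant mandibular and 4.38, 12.5 and 8.64 in the WT mandibular group. The 3 maxillary groups did not overlap, and the mandibular groups overlapped each other at low values. It passed the filter on dim values on 9 arrays, all maxillary, so it too was kept through the groups where it was high. Its mean in set 2 was 71.3% of that in set 1, a smaller step than the 33.4% of Neurod1. The dimmer probe set 1429668_at (0.234 to 40.9) had the same order of groups (r = 0.86).

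Isl1, the LIM homeodomain gene, did not follow that order. Probe set 1450723_at gave 484, 452 and 475 in set 1 and 375, 318 and 372 in the KO group. It gave 341, 341 and 352 in the WT mandibular, 327, 229 and 268 in the mutant mandibular and 241, 239 and 301 in the set 2 arrays. Set 1 was highest and set 2 lowest, so both mandibular groups and the KO group lay between the wild-type maxillary groups. The KO and WT mandibular groups overlapped, as did the mutant mandibular group and set 2. Probe set 1422720_at read 71.3 to 187, overlapped between all neighbours and followed the first only in part (r = 0.55).

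Tlx3, a homeobox gene of excitatory sensory neurons, was highest in set 1 on its single probe set. It gave 51.1, 58.9 and 62.5 there, and 38.8, 36.1 and 12.8 in set 2. The KO arrays gave 35.1, 28 and 28, the mutant mandibular arrays 27.3, 18.8 and 27.7 and the WT mandibular arrays 19.5, 10.1 and 30.4. Neighbours in order among the 4 lower groups overlapped, although the KO arrays all lay above the mutant mandibular arrays. Replicate 3 of set 2, at 12.8, lay under all KO arrays.

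The receptor genes had low signals, and groups next to each other in order overlapped. Of 8 Ntrk3 probe sets 2 were tested, and the brighter, 1422329_a_at, ran from 4.63 in set 2 to 29.9 in the KO group with overlap between all neighbours. On it the KO group (17.4 to 29.9) lay wholly above set 2 (4.63 to 13.4). The 6 untested Ntrk3 probe sets stayed at 18.8 or below. Ret passed the filter value on 11 arrays with its tested probe set and ran from 9.73 in set 1 to 44.4 on KO replicate 2, with overlap throughout. The other Ret probe set, not tested, ran from 0.392 to 14.2 with overlap between neighbours. On it set 2 (12 to 14.2) lay wholly above set 1 (0.399 to 5.57) and above both mandibular groups. No comparison below gave either gene an adjusted p under 0.05.

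Sst, the neuropeptide gene, had steps of a size like those of Neurod1. It gave 168, 189 and 244 in set 1, 47.2, 97.7 and 66.9 in set 2 and 51.1, 63.0 and 62.7 in the KO group. It gave 34.9, 39.8 and 14.4 in the mutant mandibular and 2.63, 5.52 and 9.57 in the WT mandibular group. Set 2 and the KO group overlapped, and the other steps did not. All WT mandibular values lay among the dimmest of their arrays, so no ratio to set 1 is given.

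Changes between groups are given as log2 differences ± SE of log2(signal + 32), which understates the change of dim genes. They come from 1 limma fit over all 31677 tested probe sets and 5 groups, with p adjusted by Benjamini-Hochberg over all of these, and a change is called at an adjusted p under 0.05. One probe set, the brightest, stands for each of the 13945 genes tested.

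The wild-type mandibular branch had less RNA of the sensory neuron genes than the wild-type maxillary branch of set 1. Neurod1 was lower by a log2 change of -2.52 ± 0.13 (adjusted p = 5.1e-12), Sst fell by 2.57 ± 0.18 (adjusted p = 1.3e-09), Neurog1 fell by 1.70 ± 0.18 (adjusted p = 7.1e-07) and Pou4f1 fell by 1.29 ± 0.14 (adjusted p = 2.3e-06). Tlx3 fell by 0.75 ± 0.18 (adjusted p = 0.019) and Isl1 fell by 0.42 ± 0.10 (adjusted p = 0.025). In tissue RNA, fewer neurons and less RNA per neuron cannot be told apart. Thus 6 of the 8 genes were called lower and none higher, where 2.07% of all genes were called lower and 1.6% higher. The median change of the 8 was -1.02, and that of all genes was 0. Neurog1 and Pou4f1 had passed the filter only through maxillary arrays. Neurod1 and Sst had passed it on 12 and 11 arrays, none of them WT mandibular. The part of all of these genes in this count is therefore a description. The 2 receptors were not called. Ntrk3 changed by 0.11 with a 95% interval of -0.25 to 0.47, and Ret by 0.21 with an interval of -0.16 to 0.57.

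The other tested probe sets of Neurod1 (-2.13 ± 0.19, adjusted p = 6.4e-08) and Pou4f1 (-0.94 ± 0.18, adjusted p = 0.0023) were also called lower. That of Isl1 changed by -0.36 ± 0.15 and was not called (adjusted p = 0.32). Against set 2 in place of set 1, Neurod1 (-1.32), Sst (-1.40), Neurog1 (-0.97) and Pou4f1 (-0.98) were still called lower, where 5.41% of all genes were called lower and 6% higher. The second Pou4f1 probe set was not called against set 2 (-0.43, adjusted p = 0.14). Tlx3 was not called (-0.18, adjusted p = 0.62), and Isl1 turned to 0.34 and was called higher (adjusted p = 0.036). The Isl1 call against set 1 was lost without replicate 1, 2 or 3 of WT mandibular or replicate 1 or 3 of set 1, with adjusted p from 0.055 to 0.098. The Tlx3 call was lost without replicate 1 or 2 of WT mandibular or replicate 2 or 3 of set 1, with adjusted p from 0.054 to 0.14. Direction for Isl1 thus depended on the wild-type maxillary group it was set against.

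**Figure D2:**
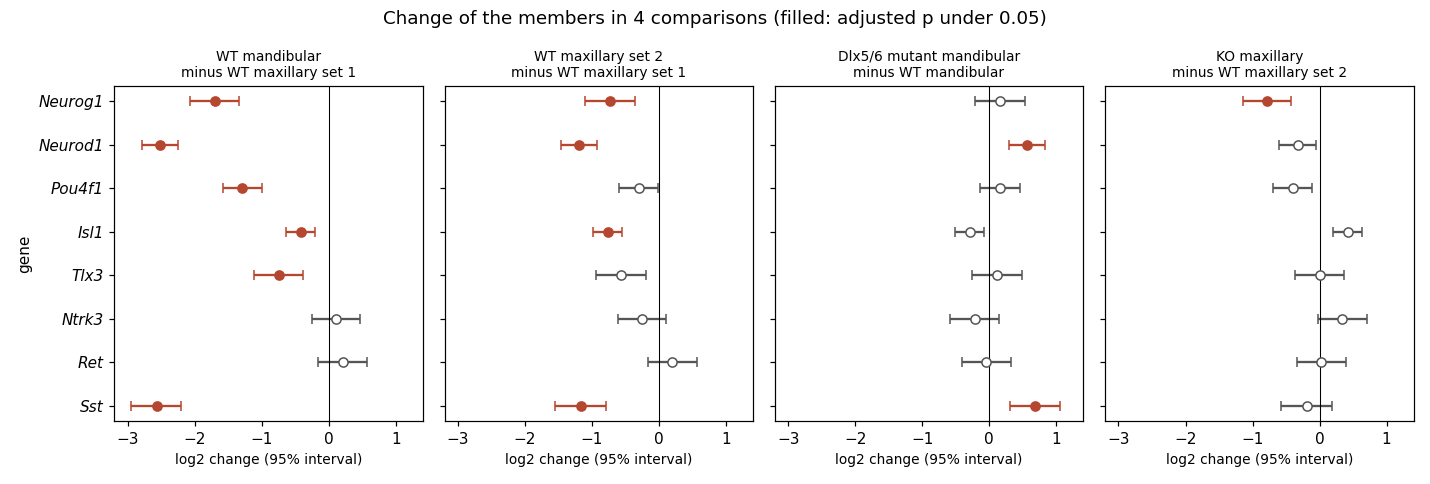
Log2 change of each gene with its 95% interval in 4 comparisons, filled where the adjusted p was under 0.05. WT mandibular minus set 1 was -2.52 for Neurod1 and -2.57 for Sst, and the mutant effects in the 2 right panels were smaller than 1.

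Set 2 also lay below set 1, although both are labelled wild-type maxillary. Neurod1 fell by 1.20 ± 0.13 (adjusted p = 2e-06), Sst fell by 1.17 ± 0.18 (adjusted p = 0.00018), Isl1 fell by 0.76 ± 0.10 (adjusted p = 3.7e-05) and Neurog1 fell by 0.73 ± 0.18 (adjusted p = 0.011). That made 4 of 8 genes called lower, where 4.9% of all genes were called lower and 4.13% higher. Their median change was -0.65 against -0.01 for all genes. Tlx3 changed by -0.57 ± 0.18 (adjusted p = 0.051) and Pou4f1 by -0.30 ± 0.14 (adjusted p = 0.23), neither called. The second Neurod1 probe set gave -1.50 (adjusted p = 1.6e-05) and the second Isl1 probe set -0.50 (adjusted p = 0.044). The Neurog1 call was lost without replicate 1 or 3 of set 1 or replicate 2 of set 2 (adjusted p from 0.053 to 0.066), and Tlx3 was called without replicate 1 of set 2 (adjusted p = 0.035). The second Isl1 probe set lost its call without replicate 1 or 2 of set 1 or replicate 2 or 3 of set 2 (adjusted p from 0.079 to 0.21). These groups lie in different sets of arrays, and array set and group cannot be told apart.

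Loss of Dlx5 and Dlx6 in the mandibular branch went with a small rise of 2 of the genes. Neurod1 rose by 0.56 ± 0.13 (adjusted p = 0.018) and Sst rose by 0.68 ± 0.18 (adjusted p = 0.045). Neither probe set passed the filter on a WT mandibular array, where both lay among the dimmest values. Higher calls were made for 1.55% of all genes and lower calls for 1.58%. The median change of the 8 was 0.14 against -0.01 for all genes. Neurog1 (0.16, 95% interval -0.21 to 0.53), Pou4f1 (0.16, -0.14 to 0.46), Tlx3 (0.11, -0.26 to 0.49) and Isl1 (-0.29, -0.51 to -0.08) were not called. The second Neurod1 probe set changed by 0.54 ± 0.19 and was not called (adjusted p = 0.17).

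These 2 calls were not firm. That of Neurod1 was lost without replicate 1 or 2 of the mutant or replicate 1 or 2 of WT mandibular (adjusted p from 0.051 to 0.075). That of Sst was lost without replicate 1 or 2 of the mutant or any 1 replicate of WT mandibular (adjusted p from 0.06 to 0.24). With only the mandibular arrays in the fit, neither was called (adjusted p = 0.11 for Neurod1 and 0.1 for Sst). Without replicate 1 of the mutant, Isl1 was called lower at -0.41 (adjusted p = 0.04), whereas over all arrays its second probe set changed by 0.14 (adjusted p = 0.81). In every array, the mutant signal of Neurod1 exceeded that of WT mandibular, 21.7 being the lowest mutant and 7.33 the highest wild-type value. That too is a description and not a test.

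The mutant mandibular branch lay below the wild-type maxillary level of set 1 for most of the genes. Against set 1, Neurod1 fell by 1.96 ± 0.13 (adjusted p = 1.9e-09), Sst fell by 1.89 ± 0.18 (adjusted p = 8.7e-07), Neurog1 fell by 1.54 ± 0.18 (adjusted p = 1.3e-05), Pou4f1 fell by 1.12 ± 0.14 (adjusted p = 6.6e-05) and Isl1 fell by 0.72 ± 0.10 (adjusted p = 0.00033). These 5 of 8 were called lower where 0.523% of all genes were called lower and 0.272% higher, so few genes separated these groups. Neurog1 and Pou4f1 had passed the filter only through maxillary arrays, and their mutant values lay among the dimmest. Their part in this count is therefore a description. The median change of the 8 was -0.92 against 0 for all genes. Tlx3 was not called (-0.64 ± 0.18, adjusted p = 0.15). This comparison shares its set 1 arrays with the WT mandibular one, so they are not independent. Against set 2, Neurod1 (-0.76), Neurog1 (-0.81), Pou4f1 (-0.82) and Sst (-0.72) were called lower, and Isl1 was at 0.05 (adjusted p = 0.84). There 5.47% of all genes were called lower and 6.02% higher. The second probe sets of Neurod1 (-0.10, adjusted p = 0.82) and Pou4f1 (-0.31, adjusted p = 0.3) were not called.

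In the KO maxillary branch, Neurog1 was the gene of the 8 that was called. It fell by 0.78 ± 0.18 against set 2 (adjusted p = 0.03), where 0.638% of all genes were called lower and 0.638% higher. Its KO values lay among the dimmest and its probe set was kept through the wild-type maxillary arrays, though it was also called without the filter. The median change of the 8 was -0.10 against 0 for all genes. Isl1 changed by 0.42 ± 0.10, above 0 but not called (adjusted p = 0.058). Neurod1 changed by -0.33 ± 0.13 (adjusted p = 0.35) and Pou4f1 by -0.40 ± 0.14 (adjusted p = 0.27), and neither was called. On these probe sets no KO array overlapped set 2, which is a description and not a test. On the second probe sets both genes overlapped, with Neurod1 at 0.10 (adjusted p = 0.92) and Pou4f1 at -0.19 (adjusted p = 0.79). Sst (-0.19, 95% interval -0.57 to 0.18) and Tlx3 (0, interval -0.37 to 0.37) were not called. Ntrk3 (0.34, interval -0.02 to 0.7) and Ret (0.02, interval -0.34 to 0.39) were not called either.

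The Neurog1 call was lost without replicate 2 or 3 of the KO group or replicate 1 or 3 of set 2, with adjusted p from 0.076 to 0.2. Without replicate 3 of set 2, Isl1 was called higher at 0.51 (adjusted p = 0.029). Set against set 1 in place of set 2, 6 of the 8 genes were called lower in the KO group, where 6.4% of all genes were called lower and 5.35% higher, with Neurod1 at -1.52, Neurog1 at -1.51 and Sst at -1.36. Isl1 then stood at -0.35 and was called lower (adjusted p = 0.034), the opposite direction. That comparison crosses the sets of arrays.

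The mutant effects of the 2 branches were compared directly, as the Dlx5/6 effect minus the KO effect. Neurod1 differed by 0.89 ± 0.18 (adjusted p = 0.012), with an effect of 0.56 for Dlx5/6 and of -0.33 for the KO. Isl1 differed by -0.71 ± 0.15 (adjusted p = 0.012), with effects of -0.29 and 0.42. Over all genes 0.674% were called higher and 0.789% lower in this contrast. Neurog1 (0.94 ± 0.25, adjusted p = 0.08), Sst (0.88 ± 0.26, adjusted p = 0.14) and Pou4f1 (0.57 ± 0.20, adjusted p = 0.28) were not called. Without replicate 3 of the Dlx5/6 mutant, Sst was called at 1.08 (adjusted p = 0.035). The second probe sets of Neurod1 (0.44, adjusted p = 0.64) and Isl1 (-0.27, adjusted p = 0.74) were not called.

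**Figure D3:**
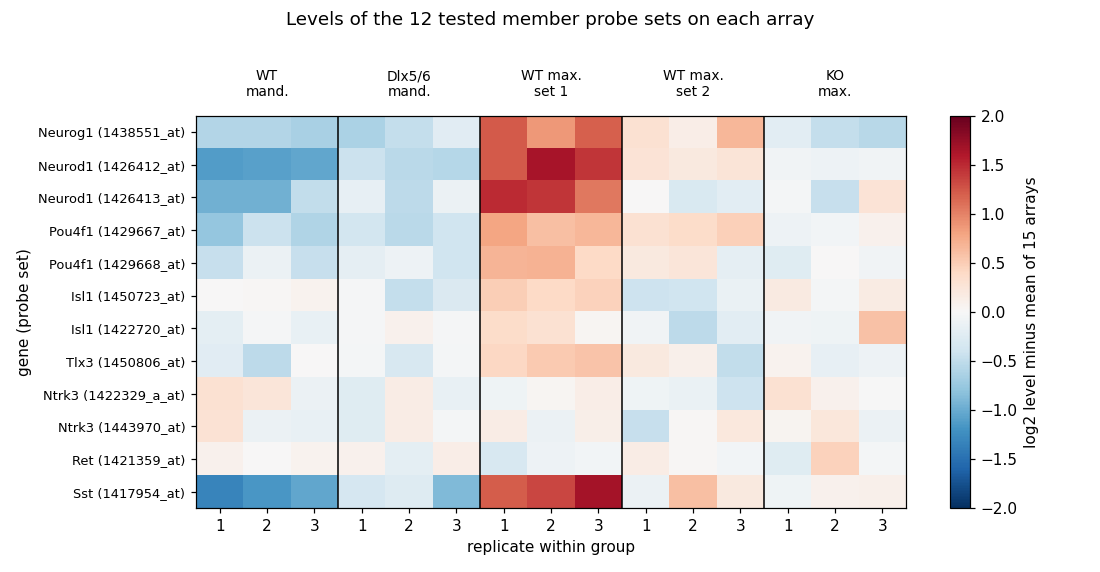
Log2 level of the 12 tested probe sets on each array, minus the probe set's mean over 15 arrays (red above, blue below). The set 1 columns are the reddest for Neurog1, Neurod1, Pou4f1 and Sst, whereas the Isl1 probe set 1450723_at has its lowest group mean in set 2.

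Across the 15 arrays the genes fell into those that varied together and those that did not. On log2 levels, Neurod1 and Sst gave a Pearson r of 0.97, Neurod1 and Pou4f1 0.93, Neurog1 and Neurod1 0.91, and Neurog1 and Sst 0.84. Tlx3 gave 0.78 with Neurod1, and Isl1 gave 0.53. Ntrk3 (-0.16) and Ret (-0.34) did not rise with it. These arrays share their groups, and the correlation lay between groups: within groups Neurog1 and Neurod1 gave -0.45 and Neurod1 and Sst 0.13. As descriptions over 15 arrays in 5 groups they carry no test.

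The genes with the most similar profiles over the 15 arrays were named for each member. For Neurod1 they were Stmn2 (r = 0.977), Nefl (0.973) and Nefm (0.970), a tubulin regulator and 2 neurofilament genes of neurons. Sst had the same 3 genes (0.968, 0.954 and 0.938). Pou4f1 had Stmn2 (0.963), Insm1 (0.959) and Nefm (0.956), and Neurog1 had Ina (0.945), Nefm (0.929) and Onecut2 (0.927). For Isl1 the closest was Map1b (0.913), a microtubule-associated protein of growing axons, followed by Dysf (0.799) and Adra2c (0.786). For Tlx3 it was Prrxl1 (0.866), another sensory homeobox gene also called Drgx, then Kcnmb2 (0.825) and Ppp1r17 (0.809). Ntrk3 had Stag3 (0.814), Gnasas1 (0.809) and Iqsec2 (0.804), and Ret had Tram2 (0.863), Nfasc (0.820) and Ing5 (0.796).

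Genes shared by all neurons moved with the members. Of 14 tested pan-neuronal genes 13 were called lower in WT mandibular than in set 1, with a median of -1.15. Nefl fell by 3.07 ± 0.14, Nefm fell by 3.06 ± 0.12, Stmn2 fell by 2.74 ± 0.13 and the neuronal tubulin gene Tubb3 fell by 1.97 ± 0.14. The summed signal of the 16 genes on the array was 1170 to 1280 in WT mandibular, 1470 to 1520 in the mutant mandibular, 3560 to 3630 in set 1, 2160 to 2190 in set 2 and 2020 to 2090 in the KO group. That is the order of groups seen for Neurod1. The mean level of this list gave r = 0.98 with Neurod1, 0.94 with Pou4f1 and with Sst, 0.93 with Neurog1, 0.77 with Tlx3, 0.55 with Isl1, -0.15 with Ntrk3 and -0.31 with Ret. The part of these genes' source in the differences of the members was not tested.

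The pan-neuronal genes were lower in set 2 than in set 1 in 10 of 14 cases, median -0.70, with Nefl at -1.46 and Tubb3 at -1.23. In the Dlx5/6 mutant mandibular group, 1 of 14 was called, Map2, which encodes a dendritic microtubule protein and rose by 0.87 ± 0.11 (adjusted p = 2.7e-05). In the KO group 2 of 14 were called lower, Nefm (-0.74 ± 0.12, adjusted p = 0.0011) and Nefl (-0.72 ± 0.14, adjusted p = 0.011). The Nefl call was lost without replicate 1 or 2 of the KO group or replicate 2 of set 2 (adjusted p from 0.063 to 0.095).

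Crest-derived glia moved in the same direction between branches. Of 4 tested genes 3 were called lower in WT mandibular than in set 1, namely Fabp7 (-2.02 ± 0.13), Sox10 (-1.62 ± 0.17), the crest and glial master regulator, and Erbb3 (-0.58 ± 0.10). Against set 2, Fabp7 and Sox10 were still called and Erbb3 was not (-0.28, adjusted p = 0.084). The summed signal of 5 glial genes was 175 to 241 in WT mandibular, 219 to 256 in the mutant, 617 to 775 in set 1, 406 to 513 in set 2 and 366 to 389 in the KO group. Set 2 had lower Sox10 (-0.79 ± 0.17) and Fabp7 (-0.63 ± 0.13) than set 1. Foxd3 went the other way, with mean signals of 42.8 in set 2 and 31.4 in set 1, and was not called. In limma's fit no glial gene was called in either mutant, and at an unadjusted p under 0.05 the counts were 0 of 4 for Dlx5/6 and 2 of 4 for the KO. The part of glia and neurons in the differences of the members was not tested.

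Markers of brain and spinal cord progenitors and motor neurons were near the dim end in all groups. The summed signal of 9 such genes was 41.0 to 114 over all arrays, with Olig2 at 0.872 to 7.11 and Sox1 at 2.5 to 4.02 as group means. The brightest were Pax6, with group means of 8.16 to 21.7, and Lhx3, with 13.6 to 21. The 3 tested genes gave no call in any comparison in limma, and 0 at an unadjusted p under 0.05.

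Other genes of the sensory neurogenesis programme were split. Of 26 listed genes 23 had a probe set and 20 were tested, and 9 of the 20 were called lower in WT mandibular than in set 1, median -0.46. They include Insm1 (-2.0 ± 0.16), a zinc finger factor of newborn neurons, Pax3 (-1.44 ± 0.14), Nhlh2 (-1.14 ± 0.14) and Neurod4 (-1.11 ± 0.18). Against set 2, Nhlh2 turned to 0.03 (adjusted p = 0.94). Insm1 gave mean signals of 4.08 in WT mandibular, 14.9 in the mutant, 116 in set 1, 62.3 in set 2 and 36.1 in the KO group, the order of Neurod1. The placode genes Eya1 and Six4 did not follow this order and were highest in the KO group, with mean signals of 1130 and 903 against 880 and 613 in set 2.

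In the mutants, the sensory list gave other genes than the members. Eya1 rose by 0.58 ± 0.08 in the Dlx5/6 mutant mandibular group (adjusted p = 0.00014), the 1 call among 20. In the KO group 2 of 20 were called, Six4 (0.55 ± 0.09, adjusted p = 0.0012) and Eya1 (0.37 ± 0.08, adjusted p = 0.033), both higher. The Eya1 call in the KO group was lost without replicate 1 or 3 of the KO group or any 1 replicate of set 2 (adjusted p from 0.073 to 0.17). Eya1 and Six4 are also known from arch mesenchyme and mesoderm. In set 2 against set 1, 3 of 20 were called lower, Nhlh2 (-1.17 ± 0.14), Prrxl1 (-0.68 ± 0.21) and Insm1 (-0.63 ± 0.16). The Prrxl1 call was lost without any 1 array of either group (adjusted p from 0.074 to 0.16). That of Insm1 was lost without replicate 1 or 2 of set 1 or of set 2 (adjusted p from 0.057 to 0.1).

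Among neurotrophin and GDNF family ligands and receptors, which act with Ntrk3 and Ret, 2 of 9 were called lower in WT mandibular than in set 1. They were Ngfr (-1.32 ± 0.11, adjusted p = 3.4e-08), the shared neurotrophin receptor, and Bdnf (-1.28 ± 0.16, adjusted p = 1.1e-05), a ligand. Both rose in the Dlx5/6 mutant mandibular group, Ngfr by 0.98 ± 0.11 (adjusted p = 5.6e-06) and Bdnf by 0.93 ± 0.16 (adjusted p = 0.00098). Ngfr gave mean signals of 66.2 in WT mandibular and 161 in the mutant, against 214 in set 1, 221 in set 2 and 229 in the KO group. It therefore did not show the step between set 1 and set 2 that Neurod1 had. In the KO group none of the 9 was called in limma, and 2 had an unadjusted p under 0.05. Ntrk2 was the 1 gene of 9 called in set 2 against set 1 (-0.53 ± 0.14, adjusted p = 0.019), a call lost without replicate 2 or 3 of set 1 or of set 2 (adjusted p from 0.053 to 0.13).

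Sensory neuropeptides and channels, the list nearest to Sst, had few members above the dim range, and 9 of 13 on the array were tested. P2rx3, an ATP-gated channel of sensory neurons, was lower in WT mandibular than in set 1 (-1.13 ± 0.20, adjusted p = 0.001). Against set 2 it was not called (-0.52, adjusted p = 0.11). Tac1, the precursor of substance P, went the other way, higher in WT mandibular by 0.82 ± 0.19 (adjusted p = 0.017) and lower in the Dlx5/6 mutant by -0.89 ± 0.19 (adjusted p = 0.0097). The first of these calls was lost without replicate 2 of WT mandibular or replicate 1 or 2 of set 1 (adjusted p from 0.053 to 0.14). The other was lost without replicate 2 of WT mandibular or replicate 3 of the mutant (adjusted p from 0.082 to 0.086). Cartpt, a neuropeptide precursor, rose by 1.58 ± 0.18 in the KO group (adjusted p = 1.1e-05), with mean signals of 14.0 in set 2 and 106 in the KO group.

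**Figure D4:**
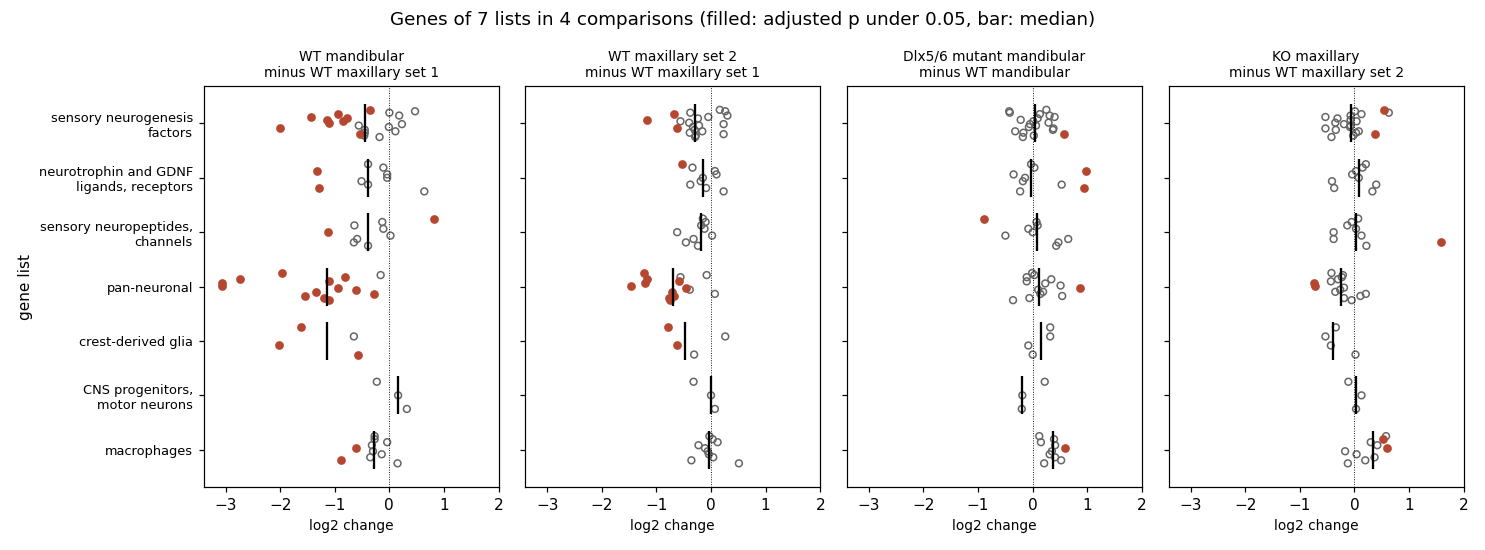
Log2 change of each tested gene of 7 lists in 4 comparisons, filled where the adjusted p was under 0.05, with a bar at each list's median. Pan-neuronal genes and glia lie left of 0 in the first panel, at medians of -1.15 and -1.14, and the macrophage medians lie right of 0 in both mutants, at 0.37 and 0.33.

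Macrophage genes were called in part, with 2 of 10 lower in WT mandibular than in set 1, 1 of 10 higher in the Dlx5/6 mutant and 2 of 10 higher in the KO group. Their summed signal over 10 genes was 339 to 385 in WT mandibular, 553 to 620 in the mutant mandibular, 568 to 590 in set 1, 514 to 563 in set 2 and 797 to 833 in the KO group. Csf1r, the receptor that defines these cells, changed by -0.62 ± 0.09 between WT mandibular and set 1 and rose by 0.59 ± 0.09 in each mutant (adjusted p = 0.00041 for Dlx5/6 and 0.001 for the KO). The other KO call, Mrc1 (0.52 ± 0.12, adjusted p = 0.025), was lost without any 1 array of the KO group or set 2 (adjusted p from 0.068 to 0.091). C1qa, the other gene lower in WT mandibular (-0.89 ± 0.19, adjusted p = 0.0069), lost its call without replicate 1 of WT mandibular (adjusted p = 0.059). Between set 1 and set 2, where Neurod1 and Sst differed, limma called none of the 10, and 1 had an unadjusted p under 0.05. Their part in the differences of the members was not tested. Epithelial genes, among which Isl1 has a known site of expression, gave no call in WT mandibular against set 1 in limma, with 3 of 7 at an unadjusted p under 0.05 and a median of 0.18. Between set 2 and set 1, where Isl1 was lower, Krt18 (0.26 ± 0.07, adjusted p = 0.027) was called higher and Epcam (-0.28 ± 0.08, adjusted p = 0.037) lower. The Krt18 call was lost without replicate 1 or 2 of either set (adjusted p from 0.059 to 0.11), and that of Epcam without replicate 2 or 3 of set 1 or any 1 replicate of set 2 (adjusted p from 0.075 to 0.19).

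Arch mesoderm is another known site of Isl1. Of 6 mesoderm and muscle genes 2 were called higher in WT mandibular than in set 1, Tcf21 (1.13 ± 0.18, adjusted p = 0.00027) and Myf5 (1.12 ± 0.16, adjusted p = 7.3e-05). The summed signal of the 6 was 295 to 300 against 151 to 182. Myog went the other way, with mean signals of 6.42 in WT mandibular and 32.7 in set 1, and was not called. Myf5, a gene of muscle precursors, changed by -0.92 ± 0.16 in the Dlx5/6 mutant (adjusted p = 0.0011). Endothelial genes summed to 1030 to 1200 in the KO group against 771 to 859 in set 2, with 1 of 6 called, Emcn (0.47 ± 0.09, adjusted p = 0.0096). That call was lost without replicate 2 or 3 of the KO group or replicate 3 of set 2 (adjusted p from 0.06 to 0.068). The part of these cells in the Isl1 values was not tested.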

How the data were processed

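The deposited table held 1 linear intensity per probe set and array, and all of its sample columns were mapped. The mean intensity with 2% trimmed at each end was 150.0 on each of the 15 arrays, so the authors had scaled them before deposition; the summary method and the build are not given in the sources used here. Here intensities were converted to log2(value + 32) and quantile normalized. The 64 control probe sets were left out, and probe sets had to exceed the 40th percentile of the array on 3 or more arrays. Comparisons were contrasts in 1 limma model (limma 3.58.1, R 4.3.3) of 5 group means with an intensity trend and 10 residual degrees of freedom. Tests were two-sided. The fit was tried on simulated arrays with changes planted only in brighter probe sets. Planted changes at the dim levels of most members were not tried. Log2 changes had a median SE of 0.149, limited by the number of arrays. Symbols came from the platform annotation; 34945 probe sets had 1, 932 several and 9160 none. Up to 4 called genes per list and comparison, by size of change, and the 3 genes most like each member were named, along with any a count consists of. The members and the 11 lists were chosen with earlier results of these data known, and no list was tested as a set.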

Additional observations from a re-analysis of the deposited data

Results flagged for a closer look

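For 2 of the genes the effect of the Dlx5/6 mutation in the mandibular branch and that of the KO in the maxillary branch differed in a direct test of the difference. Neurod1 (probe set 1426412_at) differed by 0.89, and Isl1 (probe set 1450723_at) differed by -0.71. The second probe set of each gene was not called in this test. With set 1 as the control of the KO, Neurod1 differed by 2.08 and Isl1 by 0.05. The branches, the mutated genes and the sets of arrays change together in it and cannot be told apart.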

How the results depend on the processing

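Of the changes of single genes under the alternatives, 2235 stayed on the same side of the threshold in the same direction, 189 fell below it, 17 rose above it and 6 reversed, and 33 uncalled values changed sign or moved. The reversals all came with the other wild-type maxillary group as control. Isl1 (1450723_at) then gave 0.34 for WT mandibular, -0.35 for the KO, and 0.05 for both the Dlx5/6 mutant against maxillary tissue and the difference of mutant effects. Neurod1 (1426413_at) gave -1.40 for the KO, and Nhlh2 gave 0.03 for WT mandibular. That control also took the number of called genes from 511 to 1592 for WT mandibular, from 178 to 1639 for the KO, from 111 to 1603 for the Dlx5/6 mutant against maxillary tissue and from 204 to 1145 for the difference, where the sets of arrays then differ. Called members went from 1 to 6 for the KO and from 2 to 4 for the difference. Without the intensity trend, called genes went from 437 to 245 for Dlx5/6, from 178 to 106 for the KO and from 1259 to 717 for set 2 against set 1, and called members were 1 for Dlx5/6 and 1 for the difference. Called members for Dlx5/6 were 0 with the higher pseudocount, 1 without the filter and 0 in a fit of the compared groups alone. Those for the difference were 1 with the higher pseudocount, and those for the KO 0 in a fit of the compared groups alone.

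With 1 array left out, called genes ran from 112 to 133 for the KO and from 802 to 1008 for set 2 against set 1, and called members from 0 to 2 for Dlx5/6 and from 0 to 1 for the KO. Replicate numbers did not pair the arrays, since deviations of same-numbered arrays correlated at -0.096 to 0.085 over 30 pairs. With a replicate block the KO gave 2 called members, the added one being Isl1 (adjusted p = 0.046), and the second Isl1 probe set lost its call in set 2 against set 1 (adjusted p = 0.057). Shifting arrays to a common median moved the share of higher among called probe sets from 42.4% to 56.7% for WT mandibular, from 50.9% to 33.2% for the KO and from 34.0% to 46.0% for the Dlx5/6 mutant against set 1, and ended the Isl1 call for WT mandibular (adjusted p = 0.097), as did dropping the trend (adjusted p = 0.095). The cause of these shifts was not tested. Signals under the 40th percentile carry little information on size. That limits the WT mandibular values of Neurog1, Neurod1, Pou4f1 and Sst and most values of Ntrk3. It also limits the Dlx5/6 mutant mandibular values of Neurog1 and Pou4f1 and the KO values of Neurog1.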
